A study of Mus musculus with 6 samples.

Results

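Iron handling genes were examined in tumor cells from the mammary glands of MMTV-PyVT mice, together with the iron-linked secreted proteins lipocalin 2 and ceruloplasmin. The 9 genes were chosen by symbol: Lcn2, Cp, Steap4, Fth1, Ftl1, Tfrc, Trf, Ireb2 and Aco1. All 9 were among the 10995 rows of the deposited count table. In MMTV-PyVT mice the polyoma middle T oncogene is expressed from a mammary tumor virus promoter, mainly in mammary epithelium. One group of 3 libraries was labelled wild type for Nr4a1 and the other group of 3 was labelled Nr4a1-/-. Every library came from FVB/NJ mice that carry the middle T transgene, and the knockout mice were described as age matched, with no age given. Nr4a1 encodes an orphan nuclear receptor. The labels describe neither how the tumor cells were isolated nor whether libraries sharing a label were from different animals. The p-values therefore set the difference between labels only against the spread of these libraries, and that spread may be technical.

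Cells take up iron by binding transferrin, encoded by Trf, to the transferrin receptor, encoded by Tfrc, and by reducing the released iron in endosomes. Surplus iron is stored in ferritin, a shell built of heavy chains (Fth1) and light chains (Ftl1), of which the heavy chain oxidises the iron. The iron regulatory proteins, encoded by Aco1 and Ireb2, bind hairpins called iron-responsive elements when iron is scarce, which blocks translation of the ferritin messages and stabilises the Tfrc message. Control of ferritin therefore acts largely on translation, which counts of RNA do not measure. Lcn2 encodes a secreted protein that binds iron-carrying siderophores and is induced in inflammation and in mammary tumors. Cp encodes a copper ferroxidase of plasma, and Steap4 a metalloreductase of membranes that reduces iron and copper.

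The hairpins on which the iron regulatory proteins act are shown because they are the feature that ties Fth1, Ftl1 and Tfrc to one another. They were read from GENCODE M21 transcripts of build GRCm38, in the RNA sense of each gene. The pattern searched was CNNNNNCAGTGN, with the last loop base not G, followed by 5 bases able to pair with the 5 before the loop, G with T allowed, and with at least 3 of the 5 base positions below the bulged C paired. Capitals mark the bulged C and the 6 loop bases.
Fth1, 5′ UTR, chr19:9982732-9982760, plus strand: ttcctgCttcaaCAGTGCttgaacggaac
Ftl1, 5′ UTR, chr7:45459779-45459807, minus strand: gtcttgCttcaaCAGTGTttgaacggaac
Slc40a1, 5′ UTR, chr1:45925465-45925493, minus strand: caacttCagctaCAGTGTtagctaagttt
Tfrc, 3′ UTR, chr16:32631219-32631247, plus strand: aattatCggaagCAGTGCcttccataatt
Tfrc, 3′ UTR, chr16:32631598-32631626, plus strand: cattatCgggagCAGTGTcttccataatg
Tfrc, 3′ UTR, chr16:32631663-32631691, plus strand: ctatatCggagaCAGTGAtctccatatgt
Tfrc, 3′ UTR, chr16:32631710-32631738, plus strand: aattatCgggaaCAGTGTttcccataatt
Among 10544 listed coding genes, scanned in 1 transcript each, the pattern stood in the 5′ UTR of 5 genes (0.0474%) and in the 3′ UTR of 16 (0.152%). It stood in the coding sequence of 22 (0.209%), and 43 genes (0.408%) held it in any region. Genes with a 5′ UTR match included Fth1, Ftl1, its copy Ftl1-ps1 and the iron exporter gene Slc40a1. Tfrc held 4 matches, and Lcn2, Cp, Steap4, Trf, Ireb2 and Aco1 held none. A match describes the letters only. Hairpins that depart from this pattern, or that lie in other transcripts of a gene, would be missed.

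Total counts ranged from 19569173 to 24188875 per library. Levels are given as CPM, the counts relative to the library size after TMM scaling, and fold changes as log2 of knockout label over wild type label, with SE for the standard error in the edgeR fit. Over all genes, edgeR called 0 of 10995 at an adjusted p under 0.05 (0%), with 866 at an unadjusted p under 0.05 (7.88%). DESeq2 called 103 of 10984 (0.938%) and limma-voom called 0 (0%). The labels were not borne out by the Nr4a1 transcript, which had 711, 406 and 358 counts in wild type replicates 1, 2 and 3 and 612, 847 and 746 in the libraries labelled knockout. No source used here describes which part of Nr4a1 was deleted, so whole-gene counts may check nothing, and every direction is between libraries as labelled. Wild type replicate 1 lay apart from the other libraries on the first principal component, at -51.3 against -2.22 to 28.8. The luminal markers were present in every library, with a summed level of 6496 to 7279 CPM with the wild type label and 4094 to 5105 CPM with the knockout label (11 of 11 markers listed).

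The ferritin heavy chain gene Fth1 was the 1 gene of the 9 whose groups did not overlap, where 17.4% of all genes had groups that did not, 8.39% in the higher direction. It was also the 1 gene of the 9 with an unadjusted p under 0.05 in edgeR, against 7.88% of all genes. DESeq2 called it as the 1 gene of the 9, against 0.938% of the genes it tested. Of the 9, 5 had a log2 fold change above 0 and 4 below, with a median of 0.049 beside -0.0024 over all genes. The gene lies on the plus strand of chromosome 19 at 9980598 to 9985098 (GRCm38, ENSMUSG00000024661.7). Wild type replicates 1, 2 and 3 gave 15642, 18517 and 18764 counts of Fth1. There were 29214, 24004 and 26440 in knockout replicates 1, 2 and 3. In scaled levels these were 758, 849 and 883 CPM against 1199, 1006 and 1334 CPM. All 3 libraries labelled knockout lay above all 3 labelled wild type, with a gap between 883 and 1006 CPM. The mean level was 830 CPM ± 64.7 (SD, n = 3) and 1180 CPM ± 165 (SD, n = 3), a log2 fold change of 0.51 (SE 0.14) or 1.42-fold. The edgeR test did not call it (unadjusted p = 0.00961, adjusted p = 0.574), nor did limma-voom (adjusted p = 0.579), whereas DESeq2 did (adjusted p = 0.0431). With 1 library left out at a time the log2 fold change of Fth1 stayed between 0.41 and 0.61, and it was 0.45 without wild type replicate 1. The Fth1 transcript shares 7.92% of its 31-base words with transcripts of other genes, mostly the gene model Gm6977.

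**Figure D1:**
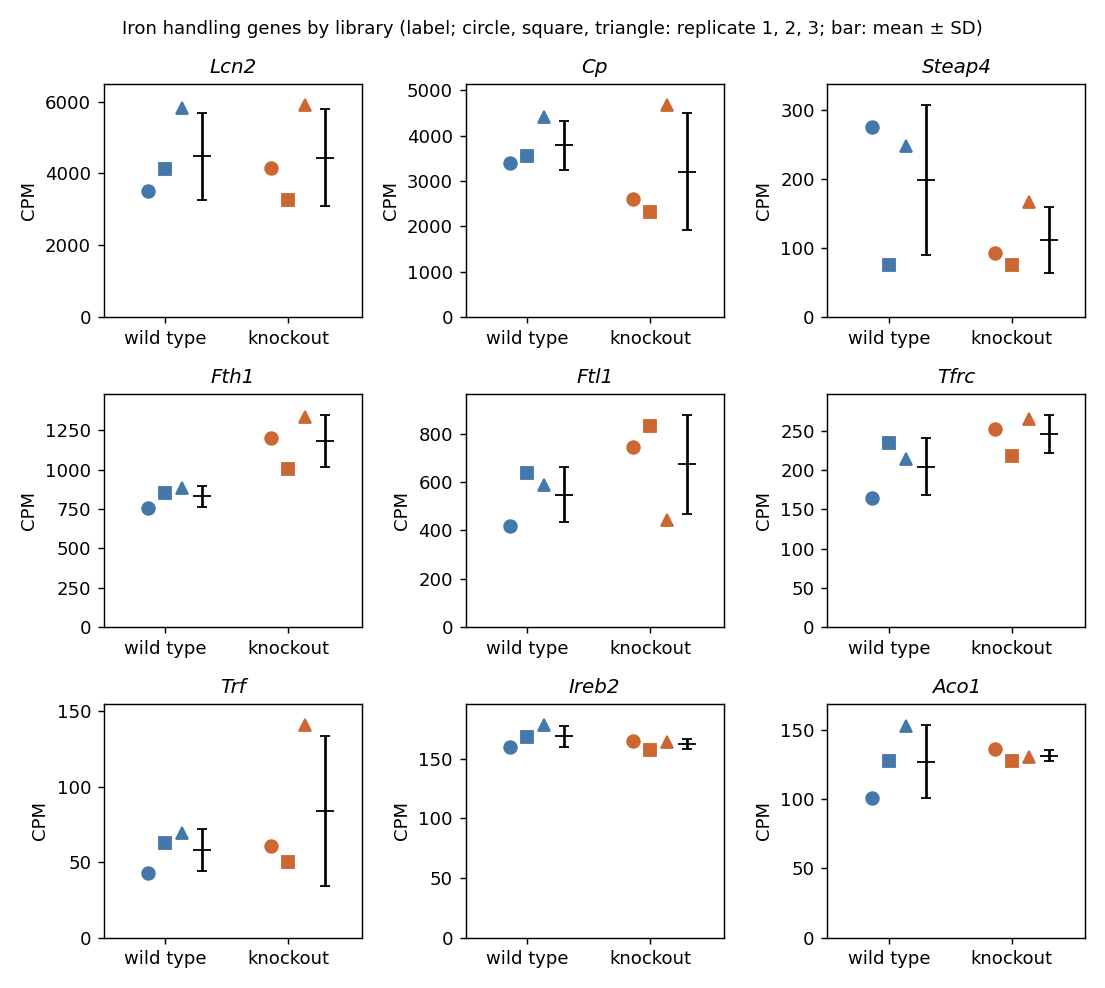
Levels of the 9 iron handling genes in CPM (linear axes from 0), with 3 libraries for each label as circle, square and triangle for replicates 1, 2 and 3, and the mean ± SD as a bar. Fth1 is the only gene of the 9 without overlap, at 758 to 883 CPM with the wild type label and 1006 to 1334 CPM with the knockout label. Of all genes, 17.4% had groups without overlap.

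The light chain gene Ftl1 did not follow the heavy chain in every library. Ftl1 (ENSMUSG00000050708.16, chromosome 7, 45457944 to 45459884, minus strand) stood at 419, 638 and 588 CPM in wild type replicates 1, 2 and 3 and at 744, 831 and 443 CPM in knockout replicates 1, 2 and 3. Knockout replicate 3, which had the highest Fth1 level, had the second lowest Ftl1 level, and the groups overlapped. The log2 fold change of Ftl1 was 0.29 (SE 0.28, edgeR adjusted p = 0.672), and it lay between 0.11 and 0.52 with single libraries left out, the lower value without knockout replicate 2 and the higher without knockout replicate 3. Within a library, Ftl1 had 0.553, 0.751 and 0.666 counts for each Fth1 count in wild type replicates 1, 2 and 3, and 0.621, 0.825 and 0.332 in knockout replicates 1, 2 and 3. The lowest and the highest ratio both fell among the libraries labelled knockout.

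Counts of Ftl1 are uncertain, because 94.9% of the 31-base words of its longest coding transcript also occur in other genes and no source used here states how reads with several alignments were counted. The copy Ftl1-ps1, which shares 80.6% of these words, was listed with 260, 411 and 391 counts in wild type replicates 1, 2 and 3 and 560, 581 and 307 in knockout replicates 1, 2 and 3. Its counts were between 2.93% and 3.50% of those of Ftl1 in each library, so they moved nearly in parallel with Ftl1.

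Genes that load or release ferritin iron differed little apart from Ncoa4, the receptor that delivers ferritin to autophagy. Ncoa4 stood at 44.7, 52.1 and 48.1 CPM in wild type replicates 1, 2 and 3 and at 61.3, 64.2 and 62.9 CPM in knockout replicates 1, 2 and 3. As for Fth1, and as for 8.39% of all genes, all libraries labelled knockout lay above all labelled wild type. The log2 fold change of Ncoa4 was 0.38 (SE 0.079), which edgeR did not call (unadjusted p = 0.00272, adjusted p = 0.574) and DESeq2 did (adjusted p = 0.0219). It lay between 0.33, without wild type replicate 1, and 0.44, without wild type replicate 2, with single libraries left out. Pcbp1, an iron chaperone that delivers iron to ferritin, had a log2 fold change of -0.026 (SE 0.074), and Fbxl5, the iron-sensing ligase subunit that degrades the Ireb2 product, had 0.044 (SE 0.13).

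Summed levels of several marker sets also differed between the labels, in both directions. The macrophage markers summed to 845 to 1012 CPM with the wild type label and 1215 to 1411 CPM with the knockout label (12 of 14 listed; Fcgr1 and Cd163 were not analysed here), with 11 of the 12 above 0 in log2 fold change. The most abundant of them, Lyz2, stood at 257 to 530 and 571 to 822 CPM, whereas Cd14, the next, stood at 239 to 460 and 143 to 432 CPM, a log2 fold change of -0.50 (SE 0.46). Pericyte and smooth muscle markers summed to 182 to 338 and 375 to 623 CPM (7 of 8 listed), with 6 above 0 in log2 fold change and Notch3 at -0.29 (SE 0.12). The 2 listed adipocyte markers of 7, Fabp4 and Lpl, summed to 11.6 to 21.5 and 53.4 to 134 CPM. Rgs5, Abcc9 and Fabp4 reached 133 counts, the lowest maximum of any gene in the table, only in libraries labelled knockout. They were thus listed only through the group where they are high, and no difference is read from either sum. Fibroblast markers overlapped, at 3016 to 7083 and 6231 to 10822 CPM (8 of 10 listed). Luminal markers, given above, were lower with the knockout label without overlap, as were the 2 listed Schwann cell markers of 5, Sox10 and Mbp, at 397 to 455 and 276 to 390 CPM. Basal markers overlapped, at 1101 to 2838 and 1998 to 2378 CPM (6 of 6 listed). Of 8 endothelial markers only Esam was listed, at 2.28 to 4.59 and 10.7 to 17.8 CPM. It too reached 133 counts only in libraries labelled knockout, with 47 to 100 counts for wild type and 213 to 424 for knockout labels. No difference is therefore read from Esam. No T cell or erythroid marker was listed. No listed marker was at 0 in any library. The part of these cells in the Fth1 and Ncoa4 values was not tested. In bulk RNA, more cells of a type and more RNA per cell cannot be told apart.

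**Figure D2:**
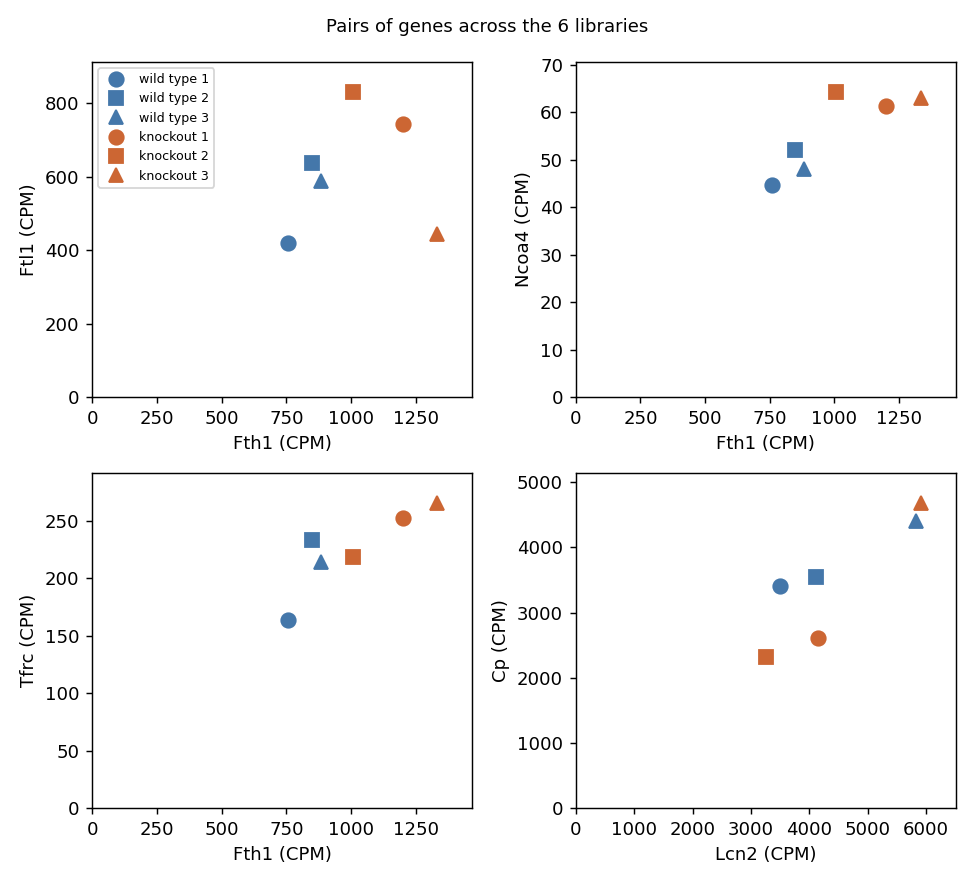
Levels in CPM of 4 pairs of genes, 1 point per library, with color for the label and shape for the replicate. Fth1 and Ncoa4 separate the labels on both axes, Ftl1 falls to 443 CPM in knockout replicate 3 where Fth1 is at 1334 CPM, and Lcn2 and Cp are both highest in replicate 3 of each label.

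The import genes Tfrc and Trf overlapped between the groups. Tfrc (ENSMUSG00000022797.16, chromosome 16, 32608920 to 32632794, plus strand), whose message carries the 3′ UTR hairpins printed above, stood at 164, 234 and 214 CPM in wild type replicates 1, 2 and 3 and at 252, 218 and 265 CPM in knockout replicates 1, 2 and 3. Wild type replicate 1 was the lowest, and wild type replicate 2 exceeded knockout replicate 2. Tfrc had a log2 fold change of 0.27 (SE 0.15, edgeR adjusted p = 0.581), and 0.13 without wild type replicate 1. Per Fth1 count, Tfrc had 0.216, 0.275 and 0.242 counts in wild type replicates 1, 2 and 3 and 0.210, 0.217 and 0.199 in knockout replicates 1, 2 and 3. The ratio was thus lower on average with the knockout label, with an overlap at wild type replicate 1 and knockout replicate 2.

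Trf (ENSMUSG00000032554.15, chromosome 9, 103204001 to 103230444, minus strand), which encodes transferrin, the iron carrier of plasma and of milk, stood at 42.7, 62.8 and 69.4 CPM in wild type replicates 1, 2 and 3 and at 61.0, 49.9 and 141 CPM in knockout replicates 1, 2 and 3. Knockout replicate 3 alone stood high. The log2 fold change of Trf was 0.52 (SE 0.43, edgeR adjusted p = 0.643), numerically as large as that of Fth1, but it was -0.072 without knockout replicate 3. The overlapping gene model Gm20425 on the same strand holds 80.7% of the 31-base words of Trf, so reads may be split or dropped. Of 7 milk secretion markers, Csn1s1 and Csn3 were listed, and they summed to 38.5 to 862 CPM with the wild type label and 127 to 491 CPM with the knockout label. Their part in the Trf values was not tested.

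The iron sensor genes Ireb2 and Aco1 overlapped between the groups, and Ireb2 varied little in any library. Ireb2 (ENSMUSG00000032293.8, chromosome 9, 54863789 to 54912530, plus strand) stood at 160, 168 and 178 CPM in wild type replicates 1, 2 and 3 and at 165, 158 and 164 CPM in knockout replicates 1, 2 and 3, with a highest level 1.13 times the lowest. In the edgeR fit Ireb2 differed by -0.057 on the log2 scale (SE 0.068, adjusted p = 0.734). Aco1 (ENSMUSG00000028405.9, chromosome 4, 40143081 to 40198338, plus strand) stood at 101, 128 and 153 CPM in wild type replicates 1, 2 and 3 and at 136, 128 and 131 CPM in knockout replicates 1, 2 and 3. The libraries labelled knockout lay inside the range of those labelled wild type. For Aco1 the log2 fold change came to 0.049 (SE 0.15, edgeR adjusted p = 0.908). Leaving out wild type replicate 1 turned it to -0.094.

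Slc40a1, which shares the 5′ UTR hairpin with Fth1 and Ftl1, differed by less than its SE. This gene, which encodes the iron exporter ferroportin, stood at 18.8, 17.3 and 12.5 CPM in wild type replicates 1, 2 and 3 and at 15.4, 15.2 and 14.3 CPM in knockout replicates 1, 2 and 3, a log2 fold change of -0.11 (SE 0.17). Across Fth1, Ftl1 and Slc40a1 the log2 fold changes thus ran from -0.11 for Slc40a1 to 0.51 for Fth1, with 0 of the 3 called by edgeR.

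Lcn2 was among the most abundant messages of these cells, and its level did not follow the label. Lcn2 (ENSMUSG00000026822.14, chromosome 2, 32384633 to 32388252, minus strand) ranked 5 of all listed genes by mean CPM. It stood at 3502, 4114 and 5830 CPM in wild type replicates 1, 2 and 3 and at 4152, 3256 and 5911 CPM in knockout replicates 1, 2 and 3. In both groups replicate 3 was the highest, and the groups overlapped over nearly their whole range. Mean levels were 4482 CPM (SD 1207, n = 3) for wild type against 4440 CPM (SD 1351, n = 3) for knockout labels. In edgeR this was a log2 fold change of -0.014, with SE 0.29 and an adjusted p of 0.988. With single libraries left out it ranged from -0.27, without knockout replicate 3, to 0.23, without wild type replicate 3. Of 13 neutrophil markers, a cell type that also expresses Lcn2, 5 were listed, and they summed to 123 to 315 CPM with the wild type label and 160 to 323 CPM with the knockout label. In log2 fold change 3 of the 5 lay above 0 and 2 below. S100a9 added little to these sums, at 9.31 CPM in wild type replicate 2 and 0.606 to 1.70 CPM elsewhere, a log2 fold change of -2.65 (SE 1.01). It was listed only through that library, where it had 203 counts, so no difference is read from it. Defining neutrophil genes such as Ly6g, Csf3r and Mpo were not analysed here, and the part of neutrophils in the Lcn2 level was not tested. The receptor gene Slc22a17, whose product binds lipocalin 2, stood at 17.98 to 22.3 CPM over all 6 libraries, with a log2 fold change of -0.084 (SE 0.11).

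Cp was nearly as abundant by CPM, at rank 7, and also overlapped between the groups. Cp (ENSMUSG00000003617.16, chromosome 3, 19957054 to 20009145, plus strand) stood at 3404, 3549 and 4405 CPM in wild type replicates 1, 2 and 3 and at 2613, 2327 and 4677 CPM in knockout replicates 1, 2 and 3. Knockout replicates 1 and 2 were the lowest of the 6 libraries and knockout replicate 3 was the highest. For Cp the edgeR fit gave a log2 fold change of -0.24 (SE 0.30, adjusted p = 0.744), which became -0.61 without knockout replicate 3 and -0.055 without knockout replicate 2. Lcn2 and Cp together took between 0.562% and 1.07% of all counts of a library. The gene Hps3 overlaps Cp on the opposite strand and was listed at 20.2 to 24.3 CPM, a small level beside that of Cp.

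Steap4 had the largest log2 fold change of the 9 in size and also the largest SE. Steap4 (ENSMUSG00000012428.9, chromosome 5, 7960457 to 7982213, plus strand) stood at 275, 75.1 and 248 CPM in wild type replicates 1, 2 and 3 and at 93.8, 76.2 and 167 CPM in knockout replicates 1, 2 and 3. Wild type replicates 1 and 3 were high, whereas wild type replicate 2 was the lowest library of all. The log2 fold change of Steap4 was -0.83 (SE 0.54, edgeR adjusted p = 0.595). Leaving out wild type replicate 2 gave -1.22, leaving out knockout replicate 3 gave -1.23, and leaving out wild type replicate 1 gave -0.53. The related metalloreductase genes had log2 fold changes of 0.46 (Steap1, SE 0.48), 0.10 (Steap2, SE 0.16) and 0.071 (Steap3, SE 0.11).

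**Figure D3:**
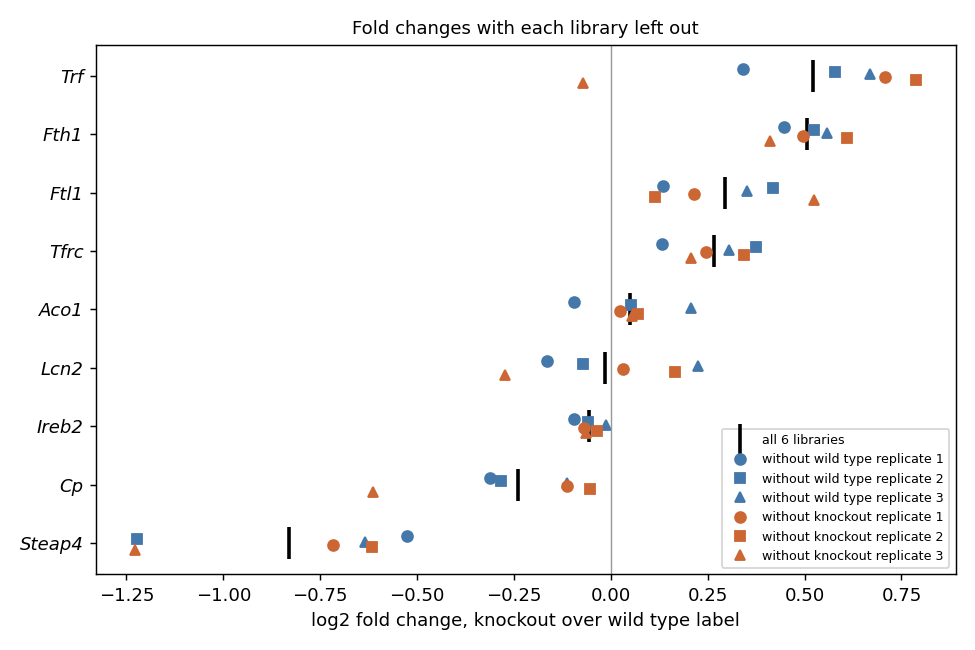
Log2 fold changes of the 9 genes (knockout over wild type label) with all 6 libraries as a black mark and with each library left out in turn as colored symbols. Fth1 stays between 0.41 and 0.61, whereas Trf, Aco1 and Lcn2 cross 0 and Steap4 spans -1.23 to -0.53.

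The order of levels per length was led by Lcn2 whichever length was used. Per kilobase of all annotated exons, Lcn2 stood at a median of 1576 RPKM over the 6 libraries (1241 to 2254). Ftl1, Cp and Fth1 followed with medians of 457, 363 and 272 RPKM, and their ranges overlapped. Steap4, Tfrc, Aco1, Trf and Ireb2 had medians of 41.3, 36.5, 28.7, 18.6 and 17.4 RPKM. With the longest coding transcript as the length, Cp moved above Ftl1, Tfrc above Steap4, and Ireb2 above Trf, so the order within these 3 pairs depends on the length used.

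The genes whose log2 CPM was most like that of a member were found by Pearson's r over the 6 libraries, which share the labels and the position of wild type replicate 1. Candidates were the 10995 listed genes with unnamed gene models left out. For Steap4 they were Cmtm6 (r = 0.994), Nfkb1 (r = 0.983), a subunit of the inflammatory factor NF-kB, and Irak3 (r = 0.982), a brake on Toll-like receptor signalling. For Lcn2 they were the oxytocin receptor gene Oxtr (r = 0.993), also among the basal markers, Susd6 (r = 0.989) and Adamts15 (r = 0.981). For Cp they were the riboflavin transporter gene Slc52a2 (r = 0.993), Mbtd1 (r = 0.990) and Atxn1l (r = 0.983), and for Trf Gle1 (r = 0.993), Unc119 (r = 0.986) and Cbr2 (r = 0.980). Among the 9 genes themselves, Lcn2 and Cp had r = 0.842, Fth1 and Tfrc also r = 0.842, and Fth1 and Ftl1 r = 0.150. With 6 libraries and so many candidates such values are descriptions.

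Of the other genes of iron and haem handling, 52 of 68 were listed, and 0 were called by edgeR in either direction (background 0%). DESeq2 called 1 higher, Ncoa4, and 0 lower, against 0.583% and 0.355% of all genes. At an unadjusted p under 0.05 edgeR gave 4 higher, Ncoa4, Blvrb, Hmox2 and Fech, and 0 lower, against 3.70% and 4.17% of all genes. The median log2 fold change of the 52 was 0.032, beside -0.0024 over all genes, with 31 above 0 and 21 below. Groups did not overlap for 6 higher and 0 lower, against 8.39% and 9.05% of all genes. Blvrb, in both of these counts, was listed only through libraries labelled knockout. Hamp, Hjv, Tmprss6, Tfr2, Hfe and Heph were not analysed here.

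**Figure D4:**
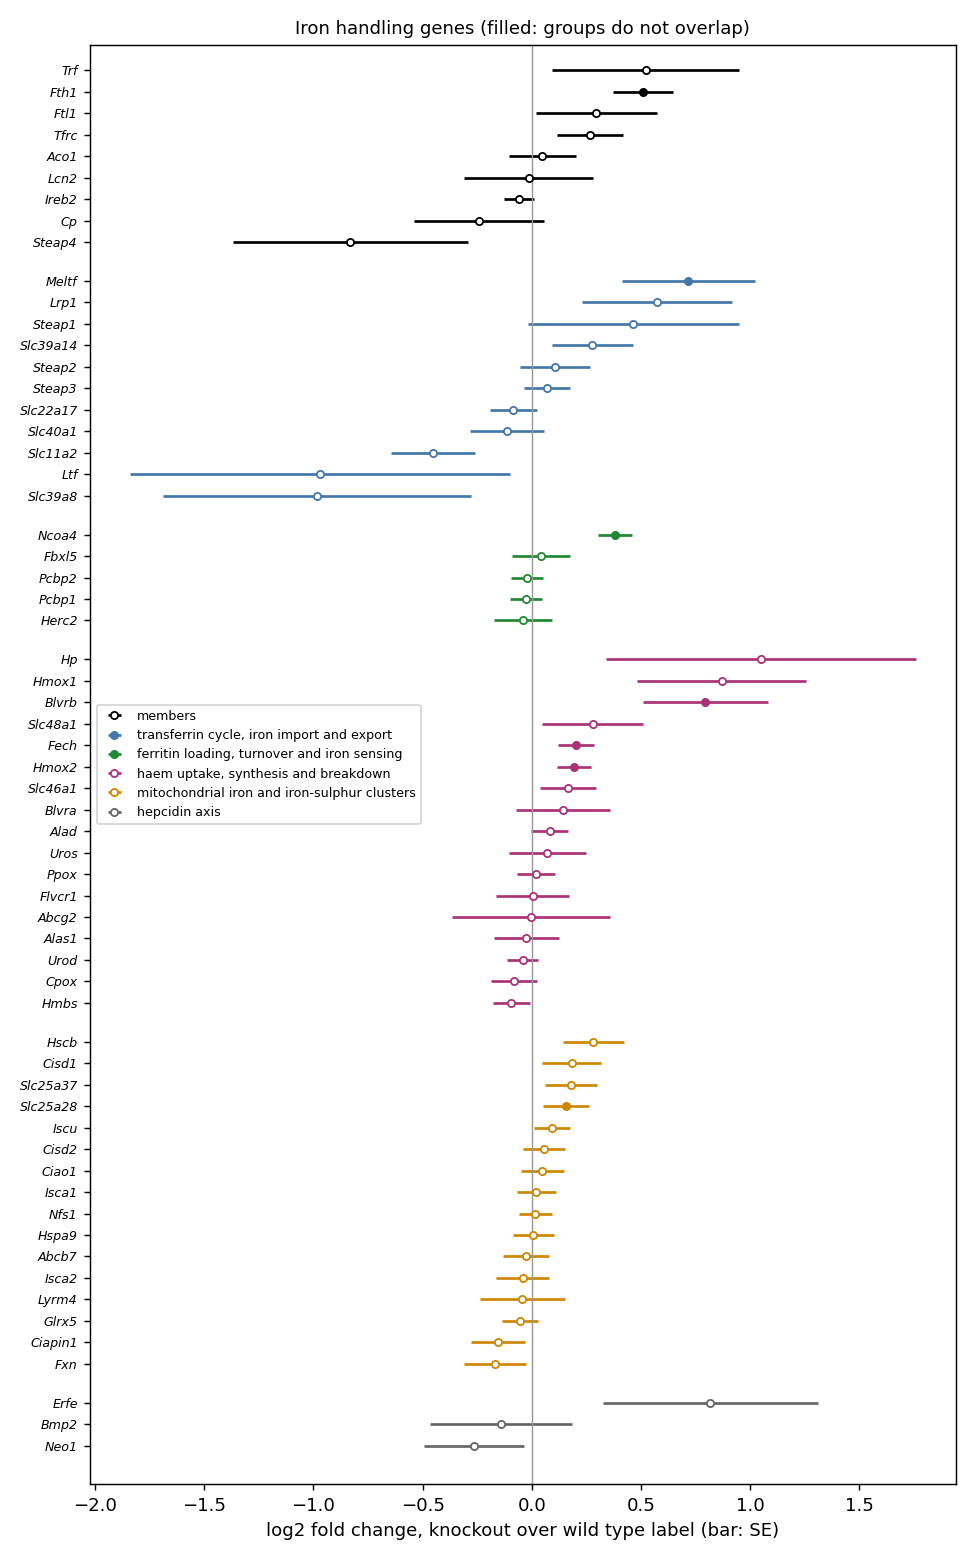
Log2 fold changes (knockout over wild type label, bars show SE) of the 9 genes, drawn as members, and of 52 other iron and haem genes by role, with filled points where the groups do not overlap. Filled points lie above 0, among them Fth1 at 0.51 and Ncoa4 at 0.38, and the mitochondrial group spans only -0.17 to 0.28.

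In the haem group 12 of 17 listed genes lay above 0, with a median of 0.082. Hmox1, which encodes the haem oxygenase that frees iron from haem, stood at 67.8, 135 and 95.1 CPM in wild type replicates 1, 2 and 3 and at 182, 258 and 106 CPM in knockout replicates 1, 2 and 3. Knockout replicate 3 lay below wild type replicate 2. In edgeR the difference was 0.87 on the log2 scale, with SE 0.39 and an adjusted p of 0.574. Without knockout replicate 2 it was 0.53, and with other single libraries left out it reached up to 1.16. Blvrb, a biliverdin reductase gene, had a mean of 3.97 CPM (SD 1.15, n = 3) against 6.88 CPM (SD 1.59, n = 3) without overlap, a log2 fold change of 0.79 (SE 0.29). It had 57, 110 and 87 counts in wild type replicates 1, 2 and 3 and 148, 208 and 116 in knockout replicates 1, 2 and 3. Only libraries labelled knockout reached 133 counts, the lowest maximum of any gene in the table. Blvrb was thus listed only through the group where it is high, and no difference is read from it. Fech, which inserts iron into haem, had 0.20 (SE 0.082), also without overlap. Haptoglobin (Hp), which binds free haemoglobin, stood at 950 CPM in knockout replicate 3 and at 138 to 230 CPM in the other 5 libraries.

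In the transport group 6 of 11 listed genes lay above 0 and 5 below, with a median of 0.071. Slc11a2, the importer of ferrous iron, stood at 135, 81.0 and 107 CPM in wild type replicates 1, 2 and 3 and at 78.4, 72.4 and 85.9 CPM in knockout replicates 1, 2 and 3. Its log2 fold change of -0.45 (SE 0.19, edgeR adjusted p = 0.574) was opposite in sign to that of Tfrc, and the groups overlapped. It was -0.26 without wild type replicate 1 and -0.62 without wild type replicate 2. The metal importer gene Slc39a14 had a log2 fold change of 0.28 (SE 0.18). Meltf, a membrane-bound transferrin relative, had 0.72 (SE 0.30) without overlap, and Ltf, lactoferrin of milk and neutrophils and itself among the neutrophil markers, had -0.97 (SE 0.87). The 16 listed genes of mitochondrial iron and iron-sulphur clusters had a median of 0.019, with 10 above 0 and 6 below, and spanned -0.17 to 0.28.

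The acute phase genes and targets of NF-kB or STAT3, a setting in which Lcn2, Cp and Steap4 are known to be induced, did not move one way. Of 23 genes, 19 were listed, 10 above 0 and 9 below, with a median log2 fold change of 0.20 and 0 called by edgeR. The cytokine gene Il6 had a mean of 6.48 CPM (SD 3.62, n = 3) against 25.4 CPM (SD 9.24, n = 3), a log2 fold change of 1.97 (SE 0.48, edgeR adjusted p = 0.574, DESeq2 adjusted p = 0.00699). The serum amyloid genes Saa2 and Saa1 had 2.52 (SE 1.34) and 2.17 (SE 1.30), with Saa1 at 591 CPM in knockout replicate 3 and 38.1 CPM in knockout replicate 2. Tnfaip3 and Nfkbia, feedback inhibitors of NF-kB, had -0.46 (SE 0.14) and -0.68 (SE 0.23), and the cytokine gene Lif had -0.72 (SE 0.25). None of these passed the edgeR test, and Lcn2 at -0.014 lay between both sets.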

How the data were processed

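RNA of 6 libraries, 3 per label, was sequenced as 150-base read pairs from NEBNext Ultra libraries, per the labels' protocols. The authors deposited raw counts of reads by gene symbol in 1 table. HISAT2, featureCounts, CASAVA 1.8 and build GRCm38 (mm10) are named in the submitters' processing notes. No source used here gives the annotation or the rules for strand and shared reads. The table holds only genes whose highest count is 133 or more, so a filter on low counts came before it. Counts were analysed over the whole table with edgeR 4.0.16 in R 4.3.3 (filterByExpr, which removed 0 genes, TMM, robust quasi-likelihood F test, group as the only term, Benjamini-Hochberg adjustment, threshold 0.05). DESeq2 1.42.0 and limma-voom (limma 3.58.1) were alternatives, beside other scalings, no filter, a replicate block and each library left out. Coordinates, lengths, hairpins and shared 31-base words came from GENCODE M21 with Python 3.11.15. Member counts ran from 881 to 123884, a counting error of 3.37% to 0.284%, below the SD between libraries for each member. No pair of libraries was a duplicate (smallest chi-square per degree of freedom 23.3). The members, the gene lists and the tests were chosen with earlier results of these data known. Named were the 9 members, Nr4a1, 14 iron genes chosen by name where listed, the 4 per direction with the largest change without overlap, 3 acute phase genes per direction by unadjusted p, and 3 genes most like Lcn2, Cp, Steap4 and Trf; Ftl1-ps1, Hps3, Hmox2 and marker genes were added.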

Additional observations from a re-analysis of the deposited data

How the results depend on the processing

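Of the 9 genes, 6 kept their direction under all 12 alternatives and 3 did not. Lcn2, at -0.014 in log2 fold change, was 0.0080 with library size alone, and with single libraries left out it ranged from -0.27 to 0.23, being above 0 when wild type replicate 3 (0.23), replicate 1 (0.032) or replicate 2 (0.17) of the knockout label was left out. Aco1 was -0.094 without wild type replicate 1 and ranged up to 0.21, and Trf was -0.072 without knockout replicate 3 and ranged up to 0.79. The cause was not tested. Fth1 crossed the threshold only with DESeq2 (log2 fold change 0.51, adjusted p = 0.0431), and its adjusted p over the alternatives ran from 0.0431 to 0.889. DESeq2 also called 1 other iron handling gene and 1 acute phase gene higher where edgeR called 0, and 64 genes higher and 39 lower over the table. With single libraries left out edgeR called between 0 and 1 gene in each direction, the 1 and 1 without wild type replicate 2. The counts at an unadjusted p under 0.05, 407 higher and 459 lower with all libraries, were 652 and 713 when wild type replicate 2 was left out. They were 258 and 255 when replicate 1 of the knockout label was left out and 217 and 171 when its replicate 2 was. Deviations of same-numbered libraries had correlations of -0.11, 0.35 and -0.25, which cannot settle whether replicate numbers 1, 2 and 3 pair the libraries. With the replicate block edgeR called 0 genes higher and 0 lower, the log2 fold change of Fth1 was 0.50 (adjusted p = 0.575), and no call changed. The block lowered the SE of Lcn2 (0.29 to 0.18), Cp (0.30 to 0.19), Trf (0.43 to 0.29) and Steap4 (0.54 to 0.34). It raised the SE of Ireb2 (0.068 to 0.079) and Tfrc (0.15 to 0.16), and that of Fth1, Ftl1 and Aco1 hardly changed. Counting error of the members, at most 3.37%, was below the SD between libraries.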
